A study of Mus musculus with 28 samples.

Results

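Transcripts of the skeletal muscle sarcomere and of the machinery that couples excitation to contraction were followed through skin wound healing in mice. The set was a list of 40 genes chosen by name, all of which were found in a table of 29068 genes. By the fibre type in which each gene is known to be used, 14 were assigned to fast fibres, 7 to slow fibres and 19 to both. No expression value was used to choose them, although results of these data were known when the list was drawn up.

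RNA was sequenced in 28 libraries, with 4 libraries at each of 7 time points (days 0, 3, 5, 7, 10, 12 and 14). Every library came from skin of C57BL/6J mice carrying intact Mlkl (MLKL+/+), and no treatment other than the wound was given. The study's methods describe 8-week-old animals of both sexes, a 6-mm punch through the shaved back skin down to the fascia, and collection of the whole wound site with its scab and epithelial edge. The sample labels name the earliest time point day 0 and use it as control, whereas the methods count the day of injury as the first day. The series text speaks of 5 repeats per time point and 4 were analysed here. No source says whether the libraries of a day came from separate animals, so the p-values measure the spread between libraries, which may in part be technical.

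Skeletal muscle contracts when myosin in thick filaments pulls on actin in thin filaments, and the repeating unit of these filaments between neighbouring Z-discs is the sarcomere. Calcium released from the sarcoplasmic reticulum binds troponin on the thin filament and allows myosin to bind. Fast and slow fibres carry different genes for myosin, for troponin and for several calcium proteins, and the embryonic and perinatal myosins are used in developing and regenerating fibres. The back skin of the mouse lies on a thin sheet of skeletal muscle, the panniculus carnosus, in which fast fibres prevail. In bulk RNA, fewer muscle fibres in the sample and less muscle RNA per fibre cannot be told apart.

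Counts per library ranged from 36706513 to 40655764. The 4 libraries of day 0 differed more than those of any later day, with a biological coefficient of variation over all genes of 26.4% against 5.70% to 10.8% on the wound days. Their muscle content differed as well. The 40 genes took 5.50%, 3.33%, 3.39% and 6.14% of all counts in day 0 replicates 1 to 4. Keratinocyte transcripts differed between the same libraries but not all in 1 direction. On the CPM scale (counts scaled to library size), Krt5 and Krt14, keratins of basal keratinocytes, were higher in replicates 1 and 4 (Krt5 2741 and 3157, Krt14 2002 and 2144) than in replicates 2 and 3 (Krt5 1358 and 1463, Krt14 875 and 858), as was Krt1 (565 and 593 against 424 and 458). Dsg1a was lower in replicates 1 and 4 (297 and 324) than in replicates 2 and 3 (371 and 409), and Krt10, a keratin of the upper layers, did not separate them (1873, 1829, 2059 and 1904 in replicates 1 to 4). Results were therefore also computed without day 0 replicates 1 and 4 and without replicates 2 and 3, a choice made after seeing the data, and values from them are given beside many of the calls that depend on them.

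The share of all counts taken by the 40 genes fell after wounding, rose again at day 10 and fell after that. It was 0.690%, 0.819%, 0.865% and 0.834% in the libraries of day 3. The day 5 libraries ranged from 0.805% to 0.888%, those of day 7 from 0.827% to 0.864%. On day 10 it reached 1.72%, 1.70%, 2.10% and 1.79%, and no library of that day overlapped those of another wound day. It was 1.27% to 1.47% on day 12 and 0.938% to 1.09% on day 14. The lowest library of day 0 (3.33%) was above the highest of all later days (2.10%).

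**Figure D1:**
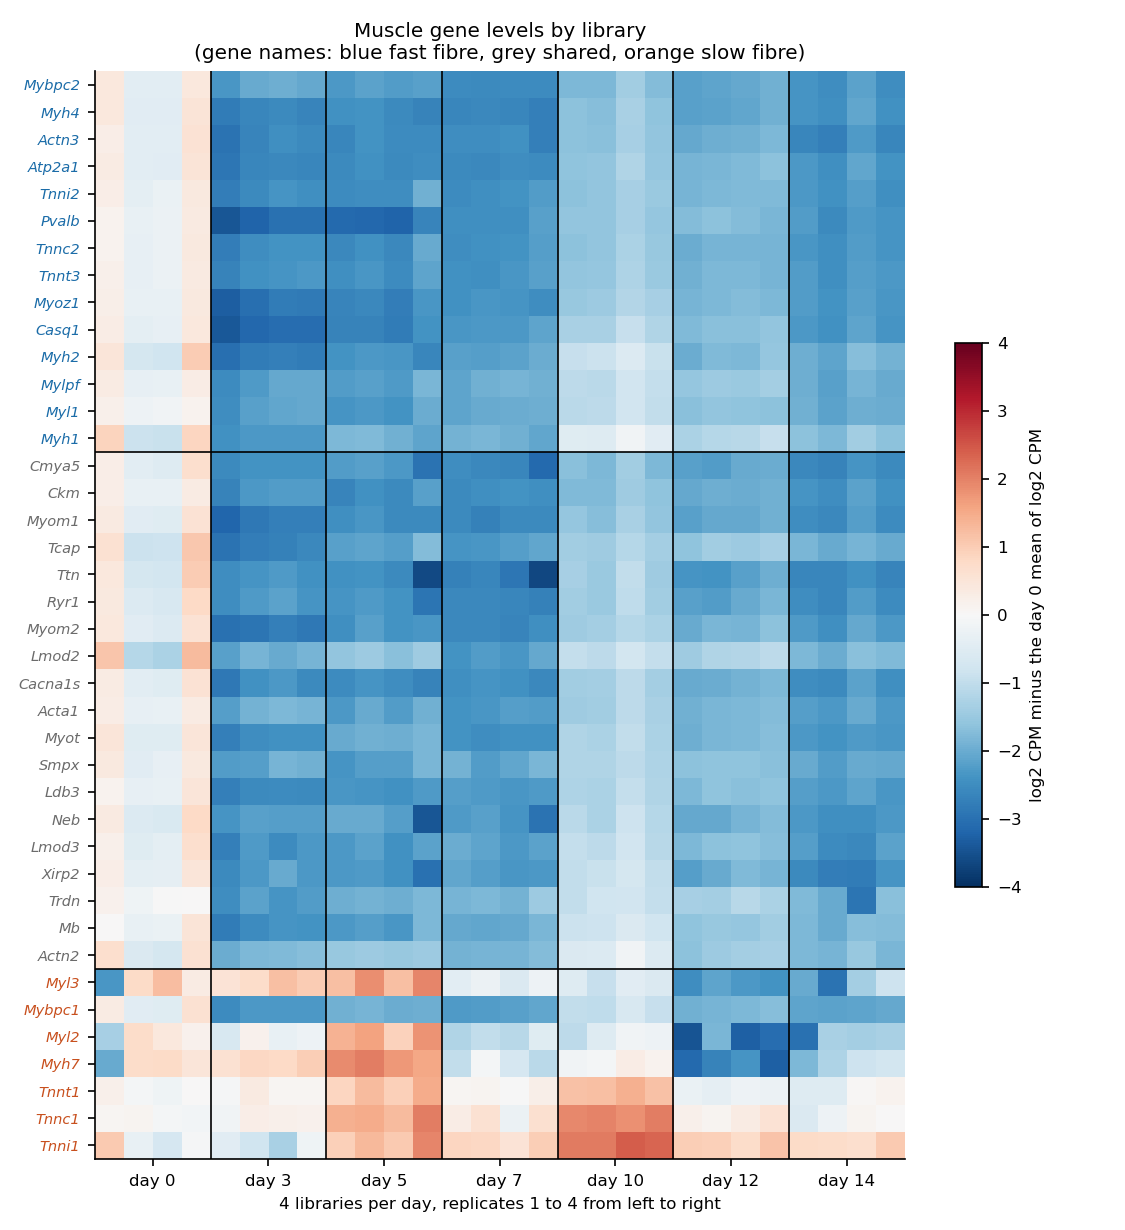
Each row is 1 of the 40 genes and each column 1 of the 28 libraries, with replicates 1 to 4 of each day from left to right. Colour gives log2 CPM (counts scaled to library size with TMM factors) minus the mean of log2 CPM over the 4 day 0 libraries, from -4 (blue) to 4 (red), with gene names in blue for fast, grey for shared and orange for slow fibre genes. The fast and shared rows are blue on every wound day and palest on day 10, while 6 of the 7 slow rows are red on day 5.

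All libraries entered 1 fit, in which each wound day was tested against day 0 with edgeR (quasi-likelihood), and a gene was called at an adjusted p (Benjamini-Hochberg over 18107 genes tested) under 0.05. All adjusted p-values of single genes below come from this fit, and fold changes are log2 values with their standard error (SE). The comparisons share the day 0 libraries and are not independent of each other. The fit assumed that a gene has the same spread on every day. As day 0 varied more, SEs and p-values against day 0 can be too small, and those between wound days too large. On day 3, 35 of the 40 genes were lower and 0 were higher than on day 0, where 34.8% of all genes tested were called lower and 31.8% higher. On day 5, 34 were lower and 6 higher (30.6% and 29% of all genes). On day 7, 36 were lower and 1 higher (24.8% and 25.6%). On day 10, 35 were lower and 3 higher (26.9% and 23.5%). On day 12, 37 were lower and 1 higher (25.6% and 21.7%), and on day 14, 37 were lower and 1 higher (34.5% and 28.2%). The median log2 fold change of the 40 genes was -2.49, -2.34, -2.35, -1.24, -1.86 and -2.32 on the 6 wound days in order. The median over all genes tested stayed between -0.06 and 0.00 in these comparisons.

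The number of genes called lower rested on no single library of day 0. Without day 0 replicates 1 and 4 it was 35, 34, 37, 33, 35 and 37 on the 6 wound days in order, and without replicates 2 and 3 it was 35, 34, 34, 34, 37 and 36. In 34 of the 40 genes all 4 libraries of day 3 lay below all 4 of day 0 (28.6% of all genes). The same held for 34 genes at day 5 (23.2%), 34 at day 7 (19.3%), 30 at day 10 (21.9%), 36 at day 12 (20.2%) and 34 at day 14 (27.3%). All 4 libraries lay above day 0 in 4 genes at day 5 (23% of all genes) and 3 at day 10 (19.5%), and in 0 genes at days 3, 7, 12 and 14 (28.2%, 19.9%, 18.6% and 23.4%).

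The study's methods name DESeq2 with cutoffs of 1.5 on the log2 fold change, up or down, and 0.05 on P, and do not say whether the P was adjusted. The same cutoffs, set here on the edgeR fit with the unadjusted p, gave a different picture of day 10. By them 34 of the 40 genes were lower on days 3, 5, 7 and 12 and 36 on day 14, but 11 on day 10, against 12.4%, 8.31%, 4.74%, 3.51%, 8.83% and 5.14% of all genes on days 3, 5, 7, 12, 14 and 10. Higher by them were 1 gene on day 5 (5.61% of all genes), 2 on day 10 (4.33%) and 0 on days 3, 7, 12 and 14 (6.5%, 4.66%, 3.89% and 5.15%).

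**Figure D2:**
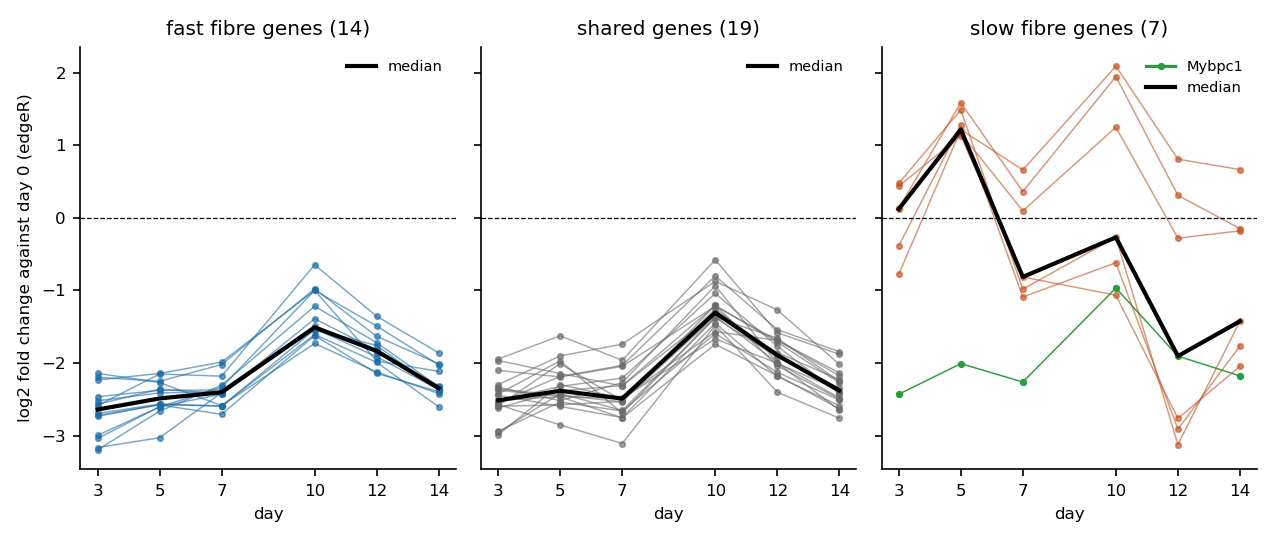
Log2 fold change of each gene against day 0 (vertical axis) on the 6 wound days (horizontal axis, days), in 3 panels for the 14 fast, 19 shared and 7 slow fibre genes. Thin lines with points are genes, the thick black line is the median of the panel and the green line in the slow panel is Mybpc1. All fast and shared points lie below 0, whereas the slow genes spread from -3.12 to 2.09.

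Slow fibre genes were called in both directions, unlike the fast and shared genes. All 14 fast genes and all 19 shared genes were called lower on each of the 6 wound days. The median of the fast genes was -2.64, -2.49, -2.40, -1.51, -1.83 and -2.35 on days 3, 5, 7, 10, 12 and 14. Of the 7 slow genes, 2 were lower and 0 higher on day 3, and 6 were higher and 1 lower on day 5. On day 7, 1 was higher and 3 lower. On day 10, 3 were higher and 2 lower. On days 12 and 14, 1 was higher and 4 were lower. Over all genes tested, 24.8% to 34.8% were lower and 21.7% to 31.8% higher on a wound day, so the 2 of 7 lower on day 3 and the 3 higher and 2 lower on day 10 were near the background. The slow median was 0.12, 1.22, -0.81, -0.27, -1.91 and -1.42 on the same days, so that the fast minus the slow median was -2.76, -3.70, -1.59, -1.24, 0.07 and -0.92 log2 units. These differences of medians are descriptions and were not tested. The value of day 12 changed sign under 5 alternative settings, and without day 0 replicate 1 the values of days 10 and 14 were -0.823 and -0.495. The slow transcripts other than Mybpc1 were scarce, and Myl3 had as few as 8 counts in a library.

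Of the 10 thick filament genes, 7 fell on every day (the 6 fast genes and Mybpc1), and the slow genes Myh7, Myl2 and Myl3 did not. On a wound day 24.8% to 34.8% of all genes tested were called lower. Myh4, the myosin heavy chain of the fastest fibres, had 8158, 4423, 4403 and 8626 CPM in the day 0 libraries. It had 866, 998, 1046 and 973 CPM on day 3, and 1972, 1861, 2500 and 1987 CPM on day 10. Every wound library lay below every day 0 library. Myh4 fell 6.59-fold on day 3 (log2 fold change -2.72, SE 0.16, adjusted p = 3.07e-14) and was 3.08-fold lower on day 10 (-1.62, SE 0.16, adjusted p = 1.86e-09).

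Myh1, which encodes the myosin of type IIX fibres, had 2323, 680, 665 and 2261 CPM on day 0 and 890, 865, 1134 and 897 CPM on day 10. The day 10 libraries lay between the high and the low libraries of day 0. The fall of day 10 (log2 fold change -0.65, SE 0.25, adjusted p = 0.0343) was lost when day 0 replicate 1 (adjusted p = 0.239) or replicate 4 (0.215) or day 10 replicate 1 (0.0745), 2 (0.0799) or 4 (0.0712) was left out. Without day 0 replicates 1 and 4 it turned into a rise of 0.50 (adjusted p = 0.000181). On day 3 Myh1 was at 233 to 252 CPM and the log2 fold change was -2.59 (SE 0.27, adjusted p = 1.96e-09). The fall of day 12 was lost in the same setting (-0.21, adjusted p = 0.0826). Myh2, the myosin of type IIA fibres, had 325, 141, 133 and 469 CPM on day 0, 28.6 to 34.6 CPM on day 3 and 121 to 160 CPM on day 10. Its fall of 3.04 log2 units on day 3 (log2 fold change -3.04, SE 0.25, adjusted p = 2.43e-11) was the deepest of that day among the myosin heavy chains of the 40 genes. The 2.0-fold lower level of day 10 (SE of log2 0.23, adjusted p = 0.000737) was lost without day 0 replicates 1 and 4 (-0.04, adjusted p = 0.802).

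Myh7, the slow and cardiac myosin heavy chain, went another way. It had 1.32, 8.87, 9.07 and 7.40 CPM on day 0, so that replicate 1 stood below the others. It had 19.6, 22.1, 17.8 and 15.4 CPM on day 5 and 0.611, 0.837, 1.04 and 0.554 CPM on day 12. All day 5 libraries were above and all day 12 libraries below those of day 0. Its log2 fold changes were 1.49 on day 5 (SE 0.31, adjusted p = 0.000187) and -3.12 on day 12 (SE 0.38, adjusted p = 1.35e-07), which was the lowest value of the 40 genes on that day. On day 3 it was 0.47 (SE 0.31, adjusted p = 0.184), the highest of that day, and 1.14 (adjusted p = 0.00594) without day 0 replicates 2 and 3. On day 10 it was -0.27 (adjusted p = 0.509), and -0.69 (adjusted p = 0.00557) without replicates 1 and 4. The fall of day 7 (-0.98, adjusted p = 0.0142) was lost without day 0 replicate 2 (adjusted p = 0.0535) or replicate 3 (0.0573), and without replicates 2 and 3 together the fall of day 14 was lost as well (-0.73, adjusted p = 0.0849).

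**Figure D3:**
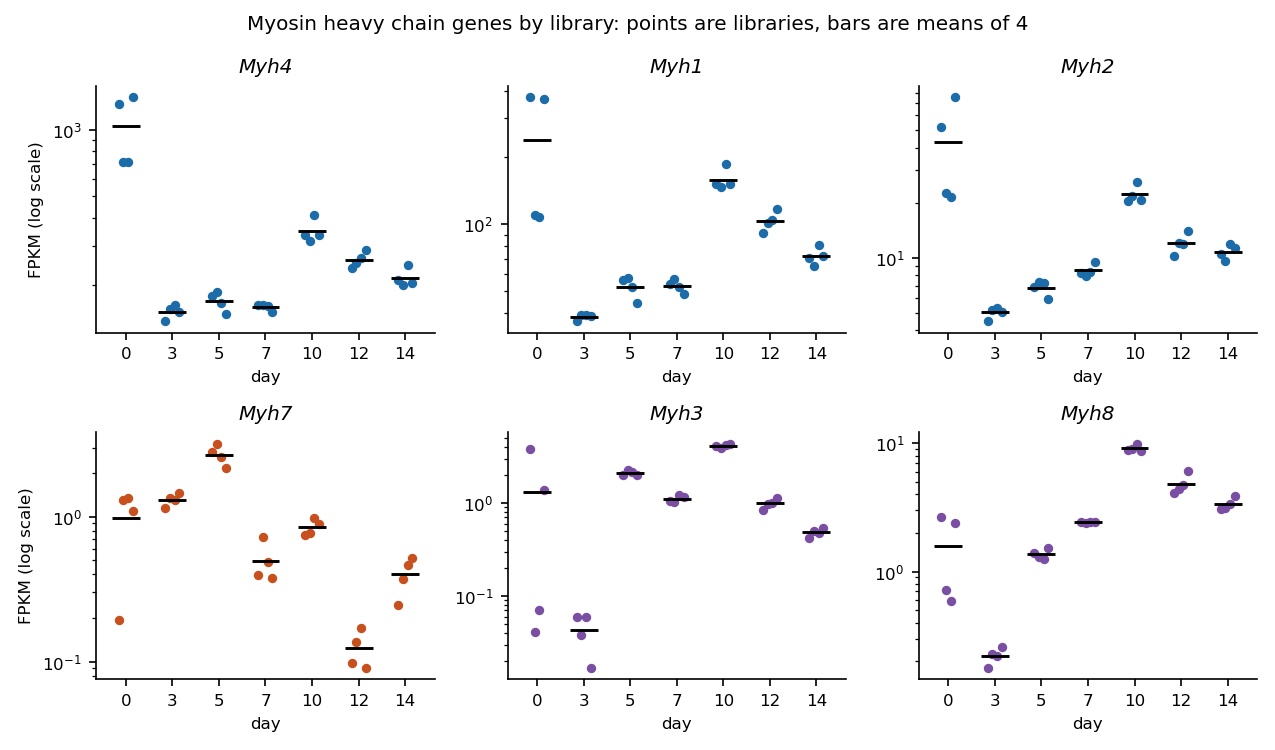
FPKM (fragments scaled by gene length and library size, log axis with its own range in each panel) of 6 myosin heavy chain genes against day. Points are libraries and bars are means of 4, in blue for the fast genes Myh4, Myh1 and Myh2, orange for the slow gene Myh7 and purple for the embryonic Myh3 and perinatal Myh8. The fast genes are lowest on day 3 and have a second peak on day 10, Myh7 peaks on day 5 and Myh3 and Myh8 peak on day 10.

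The fast and developmental myosin heavy chain genes lie side by side on chromosome 11 (GRCm38.p6, RefSeq), with Myh3 at chr11:67078273-67102291, Myh2 at chr11:67171027-67197517, Myh1 at chr11:67200102-67224577, Myh4 at chr11:67237812-67260447 and Myh8 at chr11:67277124-67308634. Myh7 lies at chr14:54970684-54994626. Their sequences are alike and the counting method is not given in the sources used here, so reads could have been split between them. As a share of the summed FPKM of these 6 genes, a scale per gene length, Myh4 took 79.9% ± 5.09 (SD, n = 4) on day 0 and 64.1% ± 0.464 on day 10. Myh1 took 16.8% ± 4.54 on day 0 and 29.2% ± 0.201 on day 10. The lowest Myh1 share on day 10 (29.0%) was above the highest on day 0 (21.4%). Myh2 took 3.06% ± 0.708 on day 0 and 4.08% ± 0.186 on day 10. Myh7 took 0.0956% ± 0.0725 on day 0. Its share was 0.670% ± 0.0538 at day 3, peaked with 1.14% ± 0.0754 at day 5 and was 0.0328% ± 0.0101 at day 12.

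Among the myosin light chains, the fast genes Mylpf (regulatory) and Myl1 (essential) had 1381 to 2173 and 1640 to 2181 CPM on day 0. They had 301 to 419 and 337 to 461 CPM on day 3. Both fell on day 3, with log2 fold changes of -2.23 (SE 0.14, adjusted p = 3.58e-14) and -2.20 (SE 0.10, adjusted p = 1.23e-16). The slow regulatory light chain Myl2 had 1.22, 5.13, 4.10 and 3.42 CPM on day 0, 7.94, 9.26, 5.82 and 10.6 CPM on day 5 and 0.282, 0.860, 0.317 and 0.369 CPM on day 12. It rose on day 5 (log2 fold change 1.28, SE 0.33, adjusted p = 0.00136) and fell on day 12 (-2.91, SE 0.40, adjusted p = 7.9e-07). Its fall of day 7 (-1.09, adjusted p = 0.0102) was lost without day 0 replicate 2 (adjusted p = 0.0544). Myl2 was also called lower on days 3 and 10 without day 0 replicates 1 and 4 (-0.80 and -1.03, adjusted p = 0.0209 and 0.00484). The slow essential light chain Myl3 had 0.291, 2.48, 3.40 and 1.84 CPM on day 0, 3.37, 5.27, 3.34 and 5.58 CPM on day 5 and 0.259, 0.339, 0.294 and 0.277 CPM on day 12. The day 5 and day 0 libraries of Myl3 overlapped, and the rise of 1.13 (SE 0.36, adjusted p = 0.00899) was lost without day 0 replicates 1 and 4 (0.58, adjusted p = 0.0737). Its call on day 10 (-1.07, adjusted p = 0.0247) was lost without day 0 replicate 2 (adjusted p = 0.0643) or 3 (0.160) or day 10 replicate 2 (0.0672). On day 7 Myl3 was at -0.81 (adjusted p = 0.0805), and at -1.36 (adjusted p = 0.000171) without day 0 replicates 1 and 4. On day 3 it was at 0.43 (adjusted p = 0.302), and at 1.41 (adjusted p = 0.00434) without replicates 2 and 3. Day 0 replicate 1 held the lowest Myh7, Myl2 and Myl3 of the day although the 40 genes together took 5.50% of its counts.

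The myosin-binding proteins C were an exception to the split by fibre type. Mybpc1, the slow form, had 503, 287, 283 and 606 CPM on day 0, 69.8 to 81.1 CPM on day 3 and 195 to 253 CPM on day 10. Its log2 fold changes were -2.43, -2.01, -2.26, -0.97, -1.91 and -2.18 on the 6 wound days, all called, with adjusted p from 1.36e-13 on day 3 to 4.6e-06 on day 10. The fast form Mybpc2 had 1193, 670, 668 and 1188 CPM on day 0, 179 to 228 CPM on day 3 and 256 to 339 CPM on day 10, with log2 fold changes from -2.59 on day 7 to -1.73 on day 10. Per length, Mybpc1 was at 98.1 ± 37.6 FPKM (SD, n = 4) on day 0, and the other 6 slow genes had day 0 means of 0.984 to 4.45 FPKM. Without Mybpc1 the slow median was 0.13, 1.25, -0.36, 0.49, -1.52 and -0.80 on the 6 days.

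Thin filament genes divided in the same way. Acta1, skeletal muscle alpha-actin, was the most abundant of the 40 genes per length on day 0, with 4221 ± 1051 FPKM (SD, n = 4). It had 8223, 5256, 5363 and 8311 CPM on day 0, 1440, 1772, 1917 and 1820 CPM on day 3 and 2499, 2554, 3222 and 2708 CPM on day 10. No wound library reached the level of a day 0 library. Acta1 fell 3.91-fold on day 3 (log2 fold change -1.97, SE 0.13, adjusted p = 2.18e-13) and was 2.47-fold lower on day 10 (-1.31, SE 0.13, adjusted p = 2.05e-09). Neb (nebulin), which runs along the thin filament, had 1555, 825, 784 and 2103 CPM on day 0, 235 to 268 CPM on day 3 and 501 to 672 CPM on day 10. The leiomodins Lmod2 and Lmod3, which act on actin filament assembly, were called lower on every day. Lmod2 had 151, 31.8, 29.2 and 170 CPM on day 0 and 35.9, 33.8, 42.2 and 35.7 CPM on day 10. Its day 10 libraries all lay above day 0 replicates 2 and 3 and below replicates 1 and 4. The log2 fold change of Lmod2 on day 10 was -1.37 (SE 0.33, adjusted p = 0.00104) with all libraries and 0.28 (adjusted p = 0.0318) without day 0 replicates 1 and 4, and on day 12 it was -1.66 (adjusted p = 0.000176) and -0.01 (adjusted p = 0.945).

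Muscle creatine kinase (Ckm), which buffers ATP at the sarcomere, and myoglobin (Mb), which stores oxygen, fell with the filament genes. Ckm had 4314, 2893, 2929 and 4497 CPM on day 0, 567, 723, 765 and 765 CPM on day 3 and 1059, 1043, 1340 and 1162 CPM on day 10. All wound libraries were below those of day 0, and the log2 fold change was -2.38 on day 3 (SE 0.13, adjusted p = 4.95e-15) and -1.67 on day 10 (SE 0.13, adjusted p = 2.08e-11). Mb was lower by 2.55 log2 units on day 3 (log2 fold change -2.55, SE 0.14, adjusted p = 7.64e-15) and by 0.80 on day 10 (-0.80, SE 0.14, adjusted p = 1.6e-05).

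The promoters of Acta1 and Ckm are shown because both are long-known muscle promoters and both genes fell on every wound day. Each is the stretch of 250 bases before the annotated start, read 5′ to 3′ along the gene, from RefSeq's annotation of GRCm38.p6. Capitals mark matches to the E-box (CANNTG, bound by the MyoD family), the CArG box (bound by serum response factor) and TATAAA. The Acta1 stretch is chr8:123894776-123895025 on the minus strand and the Ckm stretch is chr7:19410844-19411093 on the plus strand.
Acta1: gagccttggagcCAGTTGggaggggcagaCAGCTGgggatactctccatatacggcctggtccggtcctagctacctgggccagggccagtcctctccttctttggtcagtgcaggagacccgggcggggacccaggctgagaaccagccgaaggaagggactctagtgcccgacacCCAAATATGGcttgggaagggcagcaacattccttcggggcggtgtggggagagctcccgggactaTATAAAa
Ckm: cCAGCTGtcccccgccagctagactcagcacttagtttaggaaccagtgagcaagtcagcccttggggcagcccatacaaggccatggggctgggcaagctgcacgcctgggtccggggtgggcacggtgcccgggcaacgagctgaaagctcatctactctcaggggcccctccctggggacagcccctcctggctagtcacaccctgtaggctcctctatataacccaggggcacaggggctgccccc
The Acta1 stretch held 2 E-boxes, 1 CArG box and 1 TATAAA, and the Ckm stretch held 1 E-box. No matches overlapped within them. The reference table held a promoter for 30 of the 40 genes (37 starts in all). The E-box was found before 25 of these 30 genes and in 81.1% of the 37 stretches, against 66.2% of all 32851 stretches of the same length. The CArG box was found before 5 genes (16.2% of stretches against 1.5%), namely Acta1, Ldb3, Myh4, Myl3 and Myom1. The MEF2 box was found before Ttn and Xirp2 (5.4% against 0.5%), and TATAAA before Acta1, Myh1, Myh4 and Tnnt1 (10.8% against 7.6%). E-box, CArG and MEF2 patterns read the same on both strands, and TATAAA was searched along the gene only.

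Troponin consists of a tropomyosin-binding subunit (T), an inhibitory subunit (I) and a calcium-binding subunit (C), and the fast and slow forms of all 3 moved apart. The fast genes Tnnt3, Tnni2 and Tnnc2 fell on day 3 with log2 fold changes of -2.46 (SE 0.13), -2.57 (SE 0.14) and -2.52 (SE 0.14). On day 10 their log2 fold changes were -1.49, -1.54 and -1.53. The slow genes rose on days 5 and 10. Tnnc1, the slow and cardiac troponin C, had 3.49, 3.51, 3.11 and 3.03 CPM on day 0. It had 8.75, 9.18, 7.90 and 13.6 CPM on day 5, 4.00, 5.02, 2.80 and 5.06 CPM on day 7 and 12.4, 13.0, 11.7 and 13.6 CPM on day 10. All libraries of days 5 and 10 were above those of day 0. Tnnc1 was 3.00-fold higher on day 5 (log2 fold change 1.58, SE 0.18, adjusted p = 1.09e-08), the largest rise of the 40 genes on that day, and 3.85-fold higher on day 10 (1.95, SE 0.18, adjusted p = 5.13e-10).

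Tnni1, the slow inhibitory subunit, had 8.24, 3.23, 2.51 and 3.87 CPM on day 0, 2.94, 2.28, 1.64 and 3.53 CPM on day 3 and 16.9, 17.0, 21.7 and 20.4 CPM on day 10. The day 10 libraries were at least 16.9 CPM and no day 0 library was above 8.24 CPM. It was 4.25-fold higher on day 10 (log2 fold change 2.09, SE 0.26, adjusted p = 1.29e-07), the largest rise of any of the 40 genes on any day. On day 5 it had 7.81, 9.91, 8.22 and 15.5 CPM, which overlapped day 0, and the log2 fold change was 1.22 (SE 0.26, adjusted p = 0.000193). Its smaller rises on day 7 (0.66, adjusted p = 0.0354), day 12 (0.81, adjusted p = 0.0112) and day 14 (0.66, adjusted p = 0.0271) came from libraries that overlapped those of day 0. The rise of day 7 was lost without any of day 0 replicates 2, 3 or 4 or day 7 replicates 1, 2 or 4 (adjusted p from 0.0564 to 0.131), and that of day 14 without day 0 replicate 2 or 3 or day 14 replicate 4 (0.0650 to 0.0810). Without day 0 replicates 2 and 3 the rise of day 12 was lost too (0.38, adjusted p = 0.244). Its fall on day 3 (-0.78, adjusted p = 0.0146) was lost without day 0 replicate 1 (-0.25, adjusted p = 0.351), day 3 replicate 2 (0.0563) or day 3 replicate 3 (0.0903). Tnnt1, the slow tropomyosin-binding subunit, had 6.68, 5.43, 5.13 and 5.84 CPM on day 0 and 10.5, 14.0, 11.1 and 16.2 CPM on day 5. It had 13.0, 13.3, 15.5 and 13.0 CPM on day 10. It rose on day 5 (1.16, SE 0.14, adjusted p = 8.86e-08) and day 10 (1.25, SE 0.14, adjusted p = 4.6e-08) and was called on no other day.

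The fast and slow troponin C promoters are shown as an example of a troponin pair that was called in opposite directions on days 5 and 10, with E-boxes in capitals. The Tnnc2 stretch is chr2:164779735-164779984 on the minus strand and the Tnnc1 stretch is chr14:31208062-31208311 on the plus strand (GRCm38.p6).
Tnnc2: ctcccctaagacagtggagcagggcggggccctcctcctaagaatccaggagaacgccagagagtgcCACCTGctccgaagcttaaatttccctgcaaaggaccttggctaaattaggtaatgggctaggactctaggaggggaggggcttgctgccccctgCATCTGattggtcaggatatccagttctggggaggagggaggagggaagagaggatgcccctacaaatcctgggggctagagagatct
Tnnc1: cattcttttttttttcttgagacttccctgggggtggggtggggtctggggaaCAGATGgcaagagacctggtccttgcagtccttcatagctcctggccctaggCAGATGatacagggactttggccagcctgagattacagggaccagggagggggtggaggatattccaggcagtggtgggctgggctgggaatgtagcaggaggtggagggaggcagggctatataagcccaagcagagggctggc
Both stretches held 2 E-boxes, and neither held a match to the CArG box, the MEF2 box or TATAAA. Tnnc2 itself lies at chr2:164777161-164779734 and Tnnc1 at chr14:31208312-31211729.

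The ratio of a fast gene to its slow paralogue does not depend on how a library was scaled. It was taken as log2 of the ratio of counts (with 0.5 added) in each library and compared with day 0 by permuting the 4 and 4 libraries exactly, on both sides. The smallest p this test can give is 0.0286, which became 0.0375 after Benjamini-Hochberg adjustment over 42 tests (7 pairs, 6 days). At that value 32 of the 42 comparisons were called, 31 of them lower and 1 higher than on day 0. Each call means that the 4 libraries of the wound day all lay on 1 side of the 4 of day 0. The share of other gene pairs that this rule would call was not computed, so the count has no background. By day, 7, 7, 6, 5, 4 and 3 of the 7 pairs were called on days 3, 5, 7, 10, 12 and 14.

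The 3 troponin pairs were lower than on day 0 on all 6 wound days. Tnni2/Tnni1 was 7.52, 8.21, 8.69 and 8.73 on day 0 and 4.58, 4.62, 4.54 and 4.46 on day 10, a difference of -3.73 log2 units. Tnnt3/Tnnt1 was 9.03, 8.80, 8.99 and 9.39 on day 0 and 6.28, 6.30, 6.38 and 6.38 on day 10 (difference -2.72). Tnnc2/Tnnc1 was 8.75, 8.28, 8.53 and 9.20 on day 0 and 5.15, 5.11, 5.59 and 5.12 on day 10 (difference -3.45). On day 14 the differences from day 0 were still -3.14, -2.09 and -2.17. In all of these the libraries of the wound day lay below all those of day 0.

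The myosin pairs were lower early and met day 0 again later. Myh4/Myh7 was 12.6, 8.96, 8.92 and 10.2 on day 0. At day 5 it was 5.85, 5.72, 5.88 and 5.95, and at day 12 it was 11.1, 10.7, 10.4 and 11.5. It was called on days 3, 5, 7 and 10 (differences -3.45, -4.31, -1.93 and -1.61), and on day 12 it overlapped day 0 (difference 0.75, exact p = 0.400). Mylpf/Myl2 was called on days 3 and 5 (-1.98 and -3.54) and Myl1/Myl3 on days 3, 5 and 7 (-3.06, -3.79 and -1.64). Without day 0 replicate 1, Myh4/Myh7 differed by -1.126 on day 7 and -0.8034 on day 10, and Myl1/Myl3 by -0.8121 on day 7. The later differences of these 3 pairs had exact p-values from 0.0857 to 0.914, and several changed sign without 1 or both of day 0 replicates 1 and 4. Mybpc2/Mybpc1 varied little by comparison. It was 1.25, 1.22, 1.24 and 0.970 on day 0, higher on day 3 (1.36, 1.45, 1.49 and 1.43), lowest on day 10 (0.352, 0.390, 0.421 and 0.367) and called on every day but day 14 (difference -0.27, exact p = 0.0571).

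**Figure D4:**
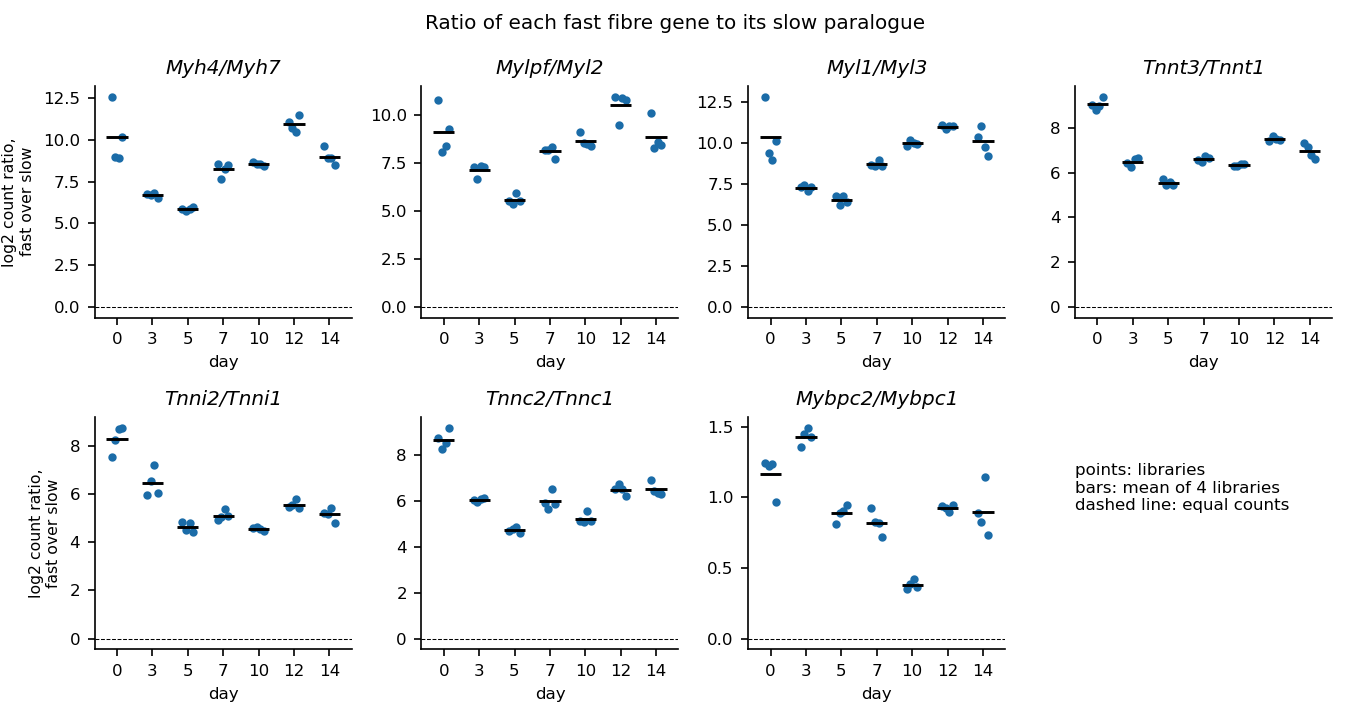
Log2 ratio of the counts of a fast gene to those of its slow paralogue (vertical axis, own range in each panel) against day, 1 panel per pair. Points are libraries, bars are means of 4 and the dashed line at 0 marks equal counts. Every ratio is above 0, the first 6 pairs fall to their lowest or next lowest level on day 5, and the 3 troponin pairs stay under day 0 through day 14.

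Z-disc genes, 9 of the 40, were lower on all 6 wound days, where 24.8% to 34.8% of all genes tested were called lower. Actn3, the alpha-actinin of fast fibres, had 1644, 1020, 1021 and 2021 CPM on day 0, 177, 220, 251 and 233 CPM on day 3 and 436, 427, 547 and 461 CPM on day 10. All wound libraries were below day 0, with a log2 fold change of -2.70 on day 3 (SE 0.16, adjusted p = 3.85e-14). Actn2, the alpha-actinin of all fibres, had 284, 120, 109 and 271 CPM on day 0, 45.4, 51.1, 51.9 and 55.3 CPM on day 3 and 119, 123, 160 and 123 CPM on day 10. Its day 10 libraries overlapped those of day 0. The fall of day 10 (-0.58, SE 0.19, adjusted p = 0.0137) was lost without day 0 replicate 1 (adjusted p = 0.113) or 4 (0.0919), and without both the value was 0.20 (adjusted p = 0.0986). Cmya5 (myospryn), a costamere and Z-disc protein, was the most reduced of the 40 genes on day 10, with 632, 400, 372 and 846 CPM on day 0 and 166, 152, 201 and 154 CPM on day 10 (-1.74, SE 0.19, adjusted p = 1.39e-08). Of the others, Tcap (telethonin), Myot (myotilin), Ldb3, Myoz1, Xirp2 and Smpx had log2 fold changes between -2.10 (Smpx) and -2.997 (Myoz1) on day 3 and between -0.94 (Xirp2) and -1.57 (Tcap) on day 10.

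Titin (Ttn), the giant protein that spans from the Z-disc to the M-band, and the M-band proteins Myom1 and Myom2 fell on every day. Ttn had 1558, 709, 703 and 2340 CPM on day 0, 206, 227, 244 and 217 CPM on day 3, 177, 190, 155 and 93.0 CPM on day 7 and 466, 411, 590 and 437 CPM on day 10. No wound library overlapped day 0. It was the most reduced of the 40 genes on day 7 (log2 fold change -3.11, SE 0.30, adjusted p = 1.35e-09) and on day 14 (-2.76, SE 0.30, adjusted p = 5.8e-09). Its SE was among the largest of the set, and replicate 4 of days 5 and 7 stood low for it, as described below.

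Among the calcium genes, Casq1 (fast calsequestrin, the calcium store of the sarcoplasmic reticulum) had the deepest fall of day 3. It had 765, 485, 503 and 841 CPM on day 0, 60.6, 70.9, 75.8 and 75.5 CPM on day 3, 124 to 146 CPM on day 7 and 258, 258, 329 and 270 CPM on day 10. It fell 9.17-fold on day 3 (log2 fold change -3.20, SE 0.14, adjusted p = 5.65e-17). Pvalb (parvalbumin), the soluble calcium buffer of fast fibres, had 1848, 1359, 1433 and 2155 CPM on day 0 and 194, 188, 181 and 270 CPM on day 5, where it was the most reduced of the 40 genes (-3.03, SE 0.14, adjusted p = 1.68e-16). Both were higher on later days than at their lowest, and Pvalb was at 302 to 366 CPM on day 7 and 559 to 660 CPM on day 10. Atp2a1, the fast calcium pump (SERCA1), had 7655, 4484, 4426 and 8718 CPM on day 0, 810, 983, 1013 and 989 CPM on day 3 and 1984, 2012, 2612 and 2085 CPM on day 10. Ryr1, the calcium release channel, and Cacna1s, its voltage sensor, were lower by 2.45 and 2.60 log2 units on day 3 (log2 fold changes -2.45, SE 0.22, and -2.60, SE 0.17) and by 1.45 and 1.36 on day 10 (-1.45, SE 0.21, and -1.36, SE 0.16). Trdn (triadin), which ties calsequestrin to the release channel, was lower by 2.30 on day 3 (-2.30, SE 0.16). All 6 calcium genes were lower on every wound day, with all libraries below those of day 0. Of all genes tested, 24.8% to 34.8% were called lower on a wound day, and 19.3% to 28.6% had all libraries below day 0.

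Within the wound, all 40 genes differed among days 3 to 14 in a joint test (5 degrees of freedom, adjusted p under 0.05). So did 85.1% of all genes tested. Tests among wound days make no comparison with day 0, but their spread was estimated over all libraries, day 0 included. The smallest adjusted p among the 40 genes was that of Casq1 (1.78e-12) and the largest that of Lmod2 (0.00675). From day 3 to day 14, 12 genes rose and 3 fell, against 34.2% and 32.8% of all genes tested. The 12 that rose among 40 were thus near the background, and the 3 that fell were fewer. The 12 were 6 fast genes (Myh1, Myh2, Myoz1, Casq1, Atp2a1 and Pvalb), 5 shared genes (Myom1, Myom2, Ldb3, Tcap and Mb) and the slow gene Tnni1. Casq1 rose by 0.87 (SE 0.13, adjusted p = 1.82e-06) and Tnni1 by 1.44 (SE 0.27, adjusted p = 3.38e-05). The 3 that fell were the slow genes Myh7 (-1.90, adjusted p = 1.47e-05), Myl2 (-1.38, adjusted p = 0.00157) and Myl3 (-2.48, adjusted p = 7.54e-06). The number that fell was 5 without day 14 replicate 4, 6 without day 14 replicate 3, 6 without either pair of day 0 libraries and 8 with the 2 days fitted alone, and except without day 14 replicate 4 the added genes included Acta1 and Mybpc2. The number that rose was 21 without composition normalization. It was 17 without day 0 replicates 1 and 4 and 18 without replicates 2 and 3. The number thus depended on the scaling and on the day 0 libraries in the fit. By the fold and unadjusted p cutoffs 0 genes rose and 2 fell (9% and 9.58% of all genes). The call of Atp2a1 (0.36, adjusted p = 0.0304) was lost without day 3 replicate 1 (adjusted p = 0.0721) or day 14 replicate 3 (0.115).

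The genes also varied together between libraries of the same day. Over 28 libraries, the deviations of log2 CPM from the day mean correlated with those of Ckm at a median r of 0.911 for the 14 fast genes (0.725 to 0.967), 0.816 for the other 18 shared genes (0.042 to 0.981) and 0.278 for the 7 slow genes (-0.277 to 0.805). Over the 24 wound libraries alone the medians were 0.859, 0.678 and 0.416. These values are descriptions. They share the library and its scaling, and the 28 include the uneven day 0 libraries. Acta1 was the most like Ckm (0.981 and 0.966). The weakest shared genes within the wound were Neb (-0.271), Ttn (-0.14), Trdn (-0.0814), Xirp2 (-0.0466) and Cmya5 (-0.0165).

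All but Trdn of these 5 genes are long. In day 5 replicate 4, the deviation from the mean of the other libraries of the day fell with gene length. This held over the 40 genes (Spearman rho across genes -0.893) and over all 18107 genes tested (-0.501). In day 7 replicate 4 the values were -0.656 and -0.275. In these libraries the 5 genes over 8000 bases (Ttn, Neb, Ryr1, Xirp2 and Cmya5) were 0.73 and 0.54 log2 units under that mean (medians -0.725 and -0.543). The 13 genes under 1500 bases were 0.47 and 0.22 above it (0.465 and 0.223). Ttn had 94.9 CPM in day 5 replicate 4 and 200 to 223 CPM in the other libraries of that day. Without both libraries the numbers of genes called lower were 34 and 35 on days 5 and 7, and the rise of Tnni1 on day 7 was no longer called. What sets these libraries apart was not tested.

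**Figure D5:**
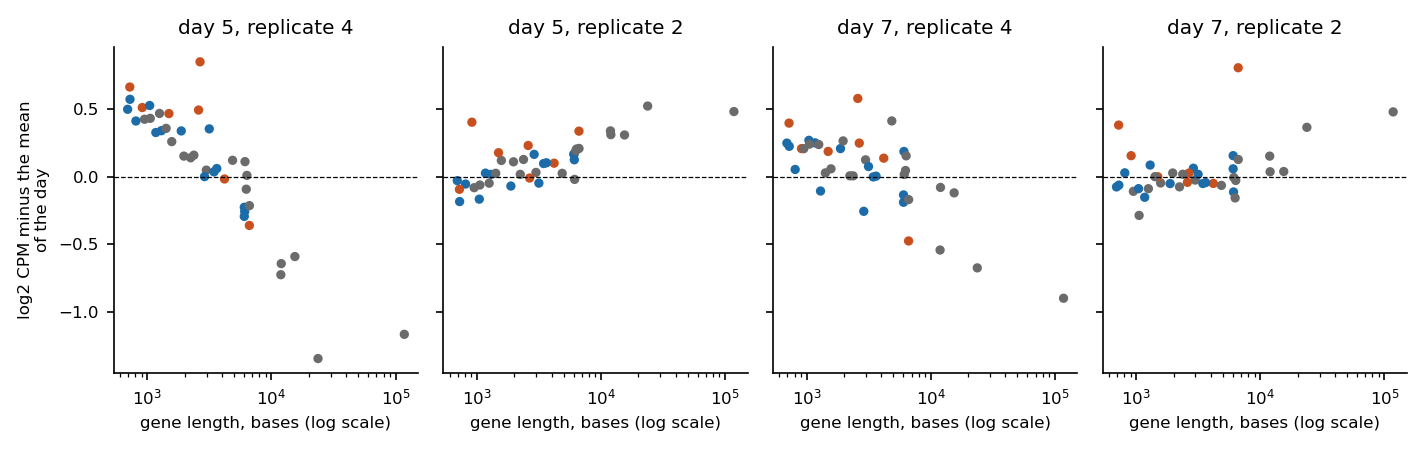
Log2 CPM of each of the 40 genes minus the mean of the other libraries of the day (vertical axis) against gene length in bases (horizontal log axis) in 4 libraries. The axis label calls this reference the mean of the day. Points are genes, in blue for fast, grey for shared and orange for slow fibre genes. In replicate 4 of days 5 and 7 the longest genes lie lowest, with medians of -0.725 and -0.543 for the 5 genes over 8000 bases, while in replicate 2 of the same days their medians lie above 0 (0.337 and 0.151).

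A list of 28 other skeletal muscle genes was read from the same fit. Besides genes of contraction it held the metabolic genes Eno3, Pygm, Pgam2, Ampd1 and Cox6a2 and the atrophy gene Trim63. On days 3, 5, 7, 10, 12 and 14, 27, 26, 26, 23, 26 and 26 of them were lower than on day 0, and 1, 1, 1, 2, 0 and 0 were higher, with medians from -2.33 (day 14) to -1.27 (day 10). Of all genes tested, 34.8%, 30.6%, 24.8%, 26.9%, 25.6% and 34.5% were lower and 31.8%, 29%, 25.6%, 23.5%, 21.7% and 28.2% higher in the same order. Without day 0 replicates 1 and 4, 26, 25, 26, 22, 25 and 26 of the list were lower. Higher were 2, 2, 2, 5, 1 and 2 (all genes 22.3% to 32.7% lower and 22.8% to 31.5% higher). Without replicates 2 and 3, 27, 27, 27, 26, 26 and 26 were lower. Higher were 1, 1, 0, 1, 0 and 1 (all genes 22% to 29.5% lower and 20.9% to 32.1% higher). Mylk2, the skeletal myosin light chain kinase, was the lowest on days 7 to 14, with 313, 179, 175 and 297 CPM on day 0 and 36.3 to 50.2 CPM on day 10 (log2 fold change -2.55, SE 0.14, adjusted p = 4.85e-14). Myoz3 was the lowest on day 3 (-3.25, SE 0.17, adjusted p = 1.51e-15) and Ampd1, the muscle AMP deaminase, on day 5 (-2.98, SE 0.13, adjusted p = 6.64e-17). Atp2a2, the calcium pump of slow fibres and of many non-muscle cells, was the highest on days 3, 5 and 7 (0.49, 0.57 and 0.15). Casq2, the slow and cardiac calsequestrin, was the highest on days 10, 12 and 14. It had 24.0, 9.15, 8.55 and 18.7 CPM on day 0, 2.83 to 4.04 CPM on day 3 and 30.3, 27.9, 30.1 and 31.6 CPM on day 10, and it rose on day 10 (0.99, SE 0.20, adjusted p = 0.000136) but passed the test on neither day 12 (0.33, adjusted p = 0.179) nor day 14 (0.15, adjusted p = 0.539). From day 3 to day 14 it rose by 2.33 (SE 0.22, adjusted p = 3.33e-10), while Trim63, a ubiquitin ligase of muscle atrophy, fell (-2.33, SE 0.26, adjusted p = 7.68e-09). Trim63 had 141, 42.3, 37.9 and 107 CPM on day 0 and 51.1 to 58.1 CPM on day 3, and its fall on day 3 (-0.62, adjusted p = 0.0256) became a rise of 0.42 without day 0 replicates 1 and 4 (adjusted p = 0.0015).

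Of 10 genes of muscle regeneration, 9, 4, 4, 2, 4 and 8 were lower than on day 0 on days 3, 5, 7, 10, 12 and 14, and 0, 0, 0, 3, 1 and 1 were higher, where 24.8% to 34.8% of all genes tested were lower and 21.7% to 31.8% higher. The lower counts of 4, 4, 2 and 4 among 10 on days 5 to 12 were near these shares. The counts also rested on the uneven day 0 libraries. With day 0 replicates 1 and 4 left out, 4, 1, 2, 0, 2 and 3 were lower and 3, 7, 7, 7, 7 and 5 higher on the 6 days, against 22.3% to 32.7% and 22.8% to 31.5% of all genes. With replicates 2 and 3 left out, 10, 9, 8, 4, 9 and 9 were lower and 0, 0, 0, 2, 1 and 1 higher, against 22% to 29.5% and 20.9% to 32.1% of all genes. On day 3 all 4 libraries lay below all of day 0 in 5 of the 10 genes (28.6% of all genes). Their summed raw CPM was 12.9 to 117 on day 0. Later ranges were 13.5 to 15.4 at day 3, 35.8 to 43.3 at day 5 and 33.2 to 36.2 at day 7. It was 121 to 133 on day 10, above every other wound day, and 31.6 to 38.1 on day 14. Myh8, the perinatal myosin, had 17.1, 4.55, 3.71 and 15.1 CPM on day 0, 1.16 to 1.74 CPM on day 3 and 53.7, 55.1, 62.6 and 53.8 CPM on day 10. It fell on day 3 (log2 fold change -2.79, SE 0.34, adjusted p = 3.44e-08) and was above day 0 in all libraries on days 10, 12 and 14 (2.48, 1.47 and 0.96, adjusted p = 2.01e-08, 5.94e-05 and 0.00316). Its rise from day 3 to day 14 was 3.74 (SE 0.33, adjusted p = 8.15e-11).

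Myh3, the embryonic myosin, had 23.7, 0.253, 0.441 and 8.59 CPM on day 0, high in replicates 1 and 4 and low in the others. It had 0.110 to 0.383 CPM on day 3, 12.8 to 14.4 CPM on day 5 and 23.4 to 25.8 CPM on day 10. Its fall of day 3 (-4.87, SE 0.85, adjusted p = 1.27e-05) was lost without day 0 replicates 1 and 4 (-0.30, adjusted p = 0.468). Its values on days 5, 7, 12 and 14 (0.71, -0.25, -0.57 and -1.58) became 5.27, 4.31, 4.00 and 2.98 without these libraries, all called. On day 10 it was higher in the fit of all libraries (1.59, adjusted p = 0.0219), with 3.03 without day 0 replicate 1, 6.16 without replicates 1 and 4 (adjusted p = 1.48e-21) and 0.62 without replicates 2 and 3 (adjusted p = 0.0158). It was not called with DESeq2 (adjusted p = 0.0601) or with the 2 days fitted alone (0.213). Against day 3 it rose by 3.29 log2 units on day 14 (3.29, SE 0.90, adjusted p = 0.00213). This fold change compares wound days only, but its SE and p use a spread estimated over all days, day 0 included. The myoblast factor Myod1 was the lowest of the list on days 5 and 7 (-2.17 and -2.34) and the satellite cell factor Pax7 on days 10, 12 and 14 (-1.23, -2.09 and -2.89), with 4 to 97 counts of Pax7 per library. Chrna1, a subunit of the muscle acetylcholine receptor, was the highest of the list on day 3 (-0.27, adjusted p = 0.518), had 20.2, 2.88, 2.54 and 14.3 CPM on day 0 and 7.58 to 9.33 CPM on day 3, and changed sign to 1.61 without day 0 replicates 1 and 4 (adjusted p = 3.04e-11). It was the lowest of the list from day 3 to day 14 (-1.55, SE 0.38, adjusted p = 0.000778).

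Markers of other cell types moved over the same days. Their counts of called genes stand against 34.8%, 30.6% and 26.9% of all genes lower and 31.8%, 29% and 23.5% higher for days 3, 5 and 10, and 1 or 2 calls in a direction among 5 genes are near these shares. Of 6 heart markers, Nppa had 0 counts in 27 of the 28 libraries and 1 in the other, and Myh6 and Myl7 had at most 6 and 14 counts. Tnni3 had 8 to 53 counts. Nppb had 2 to 39 counts on day 0 and 110 to 167 on day 3, where it rose (log2 fold change 3.00, SE 0.48, adjusted p = 3.2e-06). The summed raw CPM of the 6 was 3.68 to 25.6 on day 0 and 40.9 to 51.9 on day 10, most of it from Myl4, a light chain that developing skeletal muscle also uses. Leukocyte markers (5 genes) summed to 435 to 586 CPM on day 0, and to 1715 to 1818 at day 3, 498 to 569 at day 10 and 199 to 226 at day 14. Smooth muscle markers (6 genes) summed to 756 to 1279 CPM on day 0, and to 372 to 399 at day 3 (6 of 6 called lower) and 834 to 882 at day 10 (1 higher, 3 lower). Keratinocyte markers (5 genes) summed to 4748 to 7955 CPM on day 0, and to 3485 to 4502 at day 3 (0 higher, 4 lower) and 4835 to 5751 at day 10 (1 higher, 2 lower). Of the 5 leukocyte markers, 5 were higher on day 3, and 3 were higher and 2 lower on day 10. Markers of brown fat (5 genes) summed to 170 to 212 CPM on day 0 and to 2075 to 2410 at day 5. They summed to 645 to 661 at day 10, 173 to 192 at day 12 and 831 to 1069 at day 14. Those of white fat (5 genes) summed to 2147 to 2890, 4619 to 5352, 3227 to 3444, 2417 to 2585 and 4072 to 4517 on the same days. On day 5 the brown fat sum was mostly Ucp1 (1705 to 1998 CPM), which had 0.158 to 1.27 CPM on day 0. Ucp1 was a smaller part of the sum on day 10 (291 to 327 CPM) and day 12 (5.33 to 10.7 CPM). Of the 5 genes, 3 were higher and 2 lower (Elovl3 and Zic1) on day 3, and 3 higher and 1 lower (Elovl3) on day 5. The white fat sum followed Fabp4, a fatty acid binding protein that other cells also express (960 to 1350 CPM on day 0 and 3478 to 4251 CPM on day 5). On day 5, 1 of the 5 white fat genes was higher (Fabp4, 1.77, adjusted p = 7.93e-15), 2 were lower (Lep -2.03, Adipoq -0.15) and 2 were not called, with a median of 0.08. Their part in the levels of the muscle genes was not tested. The amount of tissue under the wound that each biopsy held is not given in the sources used here.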

How the data were processed

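RNA from mouse skin at day 0 (control) and on 6 later days of wound healing was sequenced in 28 libraries. The authors deposited raw gene counts and FPKM values. Per the submitters' notes reads were trimmed with fastp and the build was mm10, while the aligner and counter are not given in the sources used here. The 40 genes and all lists were chosen with earlier results of these data known. Named genes were the most and least changed of each list and day, with main members of each role.

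Counts of 18107 of 29068 genes that passed filterByExpr were fitted with edgeR 4.0.16 (quasi-likelihood, TMM scaling, R 4.3.3), with day as the only term. Adjusted p-values were Benjamini-Hochberg over all genes tested. FPKM was used for levels between genes. Ratios of paralogues were tested by exact permutation. Alternatives used DESeq2 1.42.0, limma 3.58.1, other scalings, filters and left-out libraries. In simulated counts for day 3 against day 0 (17729 genes), edgeR recovered 99 of 100 genes changed 2-fold and 98 of 100 changed 4-fold, with 13 false calls. The simulation drew every day with the same spread and left genes of low mean level unchanged. It therefore does not show how calls fare with the uneven day 0 libraries or with scarce transcripts. Library totals ranged from 36706513 to 40655764 counts.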

Additional observations from a re-analysis of the deposited data

Results flagged for a closer look

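In 336 groups of 4 libraries (the share of counts taken by the 40 genes, single genes and paralogue ratios, by day), 30 held a library far from the other 3 relative to the range of the group, where chance gives about 17, 1 in 20 groups.

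Of these, 10 were in day 10 replicate 3, all on the high side. It had 160 CPM of Actn2, 1130 of Myh1, 15.5 of Tnnt1, 339 of Mybpc2, 198 of Ldb3, 2610 of Atp2a1, 115 of Cacna1s, 660 of Pvalb and 41.1 of Smpx, and a Tnnc2/Tnnc1 log2 ratio of 5.59. Day 3 replicate 1 was low for Myh1 (233 CPM), Mybpc1 (69.7), Ldb3 (57.5), Atp2a1 (810) and Cmya5 (90.3). Day 5 replicate 4 was high for Tnni2 (333 CPM), Tcap (105) and Pvalb (270). Day 7 replicate 4 was low for Myh4 (913 CPM) and high for Casq1 (146), Mb (88.5) and Pvalb (366).

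The others were single values. Myom1 was low in day 7 replicate 2 (51.2 CPM), Tnnc2 in day 12 replicate 1 (347), Smpx in day 14 replicate 2 (17.7) and Myl2 in day 14 replicate 1 (0.387). Myl2 was high in day 12 replicate 2 (0.86 CPM), where Mylpf/Myl2 was low (9.5). Mylpf/Myl2 was also low in day 3 replicate 2 (6.69), and Mybpc2/Mybpc1 in day 0 replicate 4 (0.97).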

How the results depend on the processing

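All 40 genes stayed called across the wound days when any 1 library was left out, and the numbers lower than day 0 then ranged from 33 to 37. The number higher ranged from 0 to 2 on day 7 and from 0 to 1 on day 14, and from day 3 to day 14 the number lower ranged from 3 to 6. Fitting the 2 days alone gave 0 genes higher on days 7, 12 and 14 and 8 lower from day 3 to day 14. The cutoffs on fold change and unadjusted p gave 1 higher on day 5, 0 on days 7, 12 and 14, 11 lower on day 10 and 0 higher from day 3 to day 14. From day 3 to day 14, 21 were higher with upper quartile scaling, without composition normalization and with limma at a mean FPKM of at least 1, and 19 with limma on log2(FPKM + 1) or log2(FPKM + 0.1). On day 12, 2 were higher without composition normalization and with limma at a mean FPKM of at least 1. Without day 0 replicates 1 and 4, 5 were higher on day 10, and 17 were higher and 6 lower from day 3 to day 14. Without replicates 2 and 3, 2 were higher on day 3 and 0 on days 7, 12 and 14. From day 3 to day 14, 18 were then higher and 6 lower. Without replicate 4 of days 5 and 7, 0 were higher on day 7.

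The fast minus slow median ranged, with 1 library left out, between -2.918 and -2.551 for day 3, -3.956 and -3.424 for day 5, -2.061 and -1.172 for day 7, -1.507 and -0.823 for day 10, 0.01 and 0.13 for day 12, and -1.195 and -0.495 for day 14, with -0.823 and -0.495 without day 0 replicate 1. With at least 10 counts in every library it was -2.505, -1.957, -1.995, -0.741 and -1.541 on days 3, 7, 10, 12 and 14. With limma on log2(FPKM + 1) it was -3.351, -2.006, -1.363, -0.861 and -1.717 on days 5, 7, 10, 12 and 14, and at a mean FPKM of at least 1 it was -2.558, -3.314, -2.227, -1.847, -1.122 and -1.813 on the 6 days. With log2(FPKM + 0.1) it was -1.989 on day 7 and -1.456 on day 10. Without day 0 replicates 1 and 4 it was -2.08, -3.128, -0.712, -0.66, -0.127 and -0.32, and without replicates 2 and 3 -3.226, -4.425, -2.683, -2.107, -0.278 and -1.82. As a share of summed FPKM the 40 genes took 0.8882%, 0.9685%, 1.027%, 2.104%, 1.675% and 1.087%.

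The numbers did not pair the libraries by the rule that every same-numbered pair deviate together with r over 0.1 (84 pairs, r from -0.0762 to 0.177, median -0.000911), although replicate 4 of days 5 and 7 shared a trend with gene length, and 8 of 28 libraries correlated best with their own number. The replicate block moved the fast minus slow median of day 10 to -1.323 and no count of called genes by over 1.5 times. With it, Myh1 on day 10 (-0.6, adjusted p = 0.0614) and Myh3 on day 14 (-1.303, adjusted p = 0.0841) were not called, and Myh8 on day 7 was called (0.684, adjusted p = 0.0351).

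Signs turned for the following paralogue ratios and for the following genes, which passed the test in at least 1 of both fits. Without day 0 replicates 1 and 4, Myh1 (0.495), Lmod2 (0.276) and Actn2 (0.199) turned on day 10, Casq2 on days 5 and 7 (0.419 and 0.397), Trim63 on day 3 (0.416), Myh8 on day 5 (1.128), Myh3 on days 7, 12 and 14 (4.312, 3.998 and 2.984) and Chrna1 on days 3, 5, 7, 12 and 14 (1.608, 1.477, 0.494, 0.777 and 0.061). So did Myh4/Myh7 on day 14 (0.03819), Mylpf/Myl2 on days 10 and 14 (0.3958 and 0.6132) and Myl1/Myl3 on days 10 and 14 (0.7971 and 0.9081). Without replicates 2 and 3, Chrna1 turned on day 10 (-0.429) and Myh4/Myh7 and Myl1/Myl3 on day 12 (-0.4663 and -0.4823). Leaving out day 0 replicate 1 alone turned Myh3 on day 7 and Mylpf/Myl2 and Myl1/Myl3 on days 10 and 14, and leaving out day 14 replicate 4 turned Myl1/Myl3 on day 14 (0.05736). With 1 library left out, Myh3 on day 7 ranged from -0.653 to 1.183, Mylpf/Myl2 from -0.8485 to 0.0581 (day 10) and -0.7023 to 0.2755 (day 14), and Myl1/Myl3 from -0.7981 to 0.4799 (day 10) and -0.6871 to 0.5909 (day 14). Of values that passed the test neither with nor without the library, leaving out 1 library turned Myh3 on day 12 (-0.964 to 0.886), Chrna1 on days 3 and 5 (-0.586 to 0.389 and -0.725 to 0.221), Myh8 on day 5 (-0.446 to 0.231), Casq2 on day 14 (-0.002 to 0.541) and, from day 3 to day 14, Actn2, Actn3, Ckm, Mylk2 and Myod1 (from -0.073 in Ckm to 0.312 in Myod1). The cause was not tested. Counts of the slow genes other than Mybpc1 were few, which limits their precision.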
